A study of Mus musculus with 10 samples.

Results

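The aminoacyl-tRNA synthetases described here are 36 nuclear genes, taken by symbol from the 20156 rows of a hippocampal count table. Their symbols divide them into 20 cytosolic or shared enzymes and 16 mitochondrial enzymes, whose symbols end in 2. All 36 passed the filter on low counts, as did 16180 genes in all. RNA came from the hippocampus of 5 mice of the genotype labelled Tfam AKO (TfamAKO) and 5 labelled Wild Type (WT), all 6 months old, with 1 library each. The Tfam protein coats mitochondrial DNA and starts its transcription. By its title, the study concerned mitochondria in astrocytes. The labels give neither the driver of the deletion nor the cells it reached, and they give no sex, litter or batch.

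Each synthetase joins 1 amino acid to its tRNA, the step that supplies ribosomes with charged tRNA. Cytosolic ribosomes and mitochondrial ribosomes use separate tRNA pools, so most amino acids have a cytosolic and a mitochondrial enzyme, both encoded in the nucleus. Gars and Kars each serve both compartments, and Eprs carries the glutamate and the proline activity of the cytosol in a single protein. Several cytosolic enzymes assemble with scaffold proteins into the multisynthetase complex. Many cytosolic synthetase genes are known targets of ATF4, the transcription factor induced when the kinases of the integrated stress response phosphorylate eIF2alpha. Mitochondrial synthetases serve the translation of mRNAs made from mitochondrial DNA, and inherited variants in several of them cause brain disease in humans.

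Total counts ran from 19558377 to 28675367 in TfamAKO libraries and from 16584245 to 26032470 in WT libraries. Tfam itself averaged 22.5 ± 1.63 CPM (counts scaled to a common effective library size) in TfamAKO and 29.7 ± 5.17 CPM in WT (SD, n = 5 each), a log2 fold change of -0.40 ± 0.12 that passed the test (edgeR adjusted p = 0.0204). WT 3, at 20.6 CPM, lay within the TfamAKO range of 19.6 to 23.6 CPM. The hippocampal transcripts Prox1 and Neurod6 were present in every library, but TfamAKO 5 held the least of both. It was at 34.6 CPM for Prox1, where the next lowest library, TfamAKO 3, was at 57.1 CPM. For Neurod6 it was at 81.2 CPM, where the next lowest, TfamAKO 2, was at 107.5 CPM. WT 3, 4 and 5 held choroid plexus transcripts, with a summed level of the 10 markers between 4084 and 7653 CPM. That sum was 183 to 355 CPM in the 5 TfamAKO libraries and 160 and 415 CPM in WT 1 and 2. TfamAKO 4 and 5 held 22.7 and 22.4 CPM of the Y-linked transcript Kdm5d, against at most 0.699 CPM in any other library, so the sexes were not balanced between the groups. Values without these libraries are given where they change a result.

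Most cytosolic synthetase mRNAs were higher in TfamAKO hippocampus, while the mitochondrial ones that passed, a share close to that of all genes, were mostly lower. Of the 20 cytosolic or shared genes, 15 were higher and 0 lower, with a median log2 fold change of 0.28. Of the 16 mitochondrial genes, 1 was higher and 5 were lower, with a median of -0.03. Over all 16180 tested genes 37.4% passed, 20.8% higher and 16.6% lower, with a median of -0.02. Among the 10889 genes within the synthetases' range of mean level, 22.7% were higher and 17.9% lower. At an unadjusted p threshold of 0.05 the count of lower cytosolic genes was also 0, as it was with DESeq2 and with limma-voom. A gene is called higher or lower where the adjusted p of edgeR's quasi-likelihood test is under 0.05, and log2 fold changes are TfamAKO over WT with their standard error (SE).

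**Figure D1:**
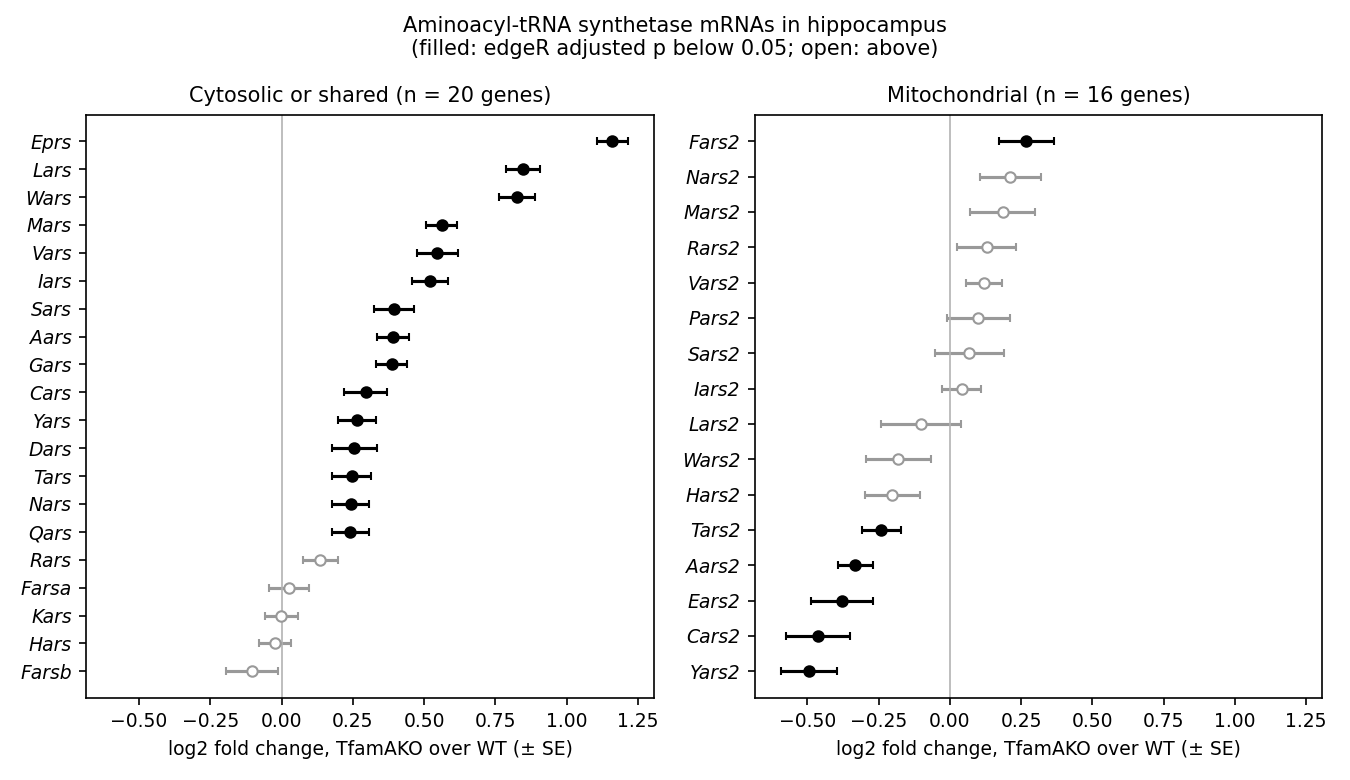
Log2 fold change of each synthetase mRNA, TfamAKO over WT, with its SE as a horizontal bar and 5 libraries per group, for the 20 cytosolic or shared genes (left) and the 16 mitochondrial genes (right). Filled points passed the adjusted p threshold of 0.05 and open points did not. Eprs stands at the top of the left panel at 1.16, and the 5 filled points below 0 are all in the right panel.

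The 8 catalytic members of the multisynthetase complex included the 2 largest rises, in Eprs and Lars. Eprs, the bifunctional glutamyl- and prolyl-tRNA synthetase, was measured at 194, 205, 193, 202 and 187 CPM in TfamAKO 1 to 5, against 95.8, 89.6, 85.2, 82.1 and 86.5 CPM in WT 1 to 5. The groups were far apart, and the TfamAKO level was 2.24-fold that of WT (log2 fold change 1.16 ± 0.06, edgeR adjusted p = 6.98e-08). Lars, leucyl-tRNA synthetase, which also serves as a leucine sensor for mTORC1, was at 70.9, 76.3, 76.97, 73.2 and 68.4 CPM in TfamAKO 1 to 5, against 42.7, 39.9, 38.5, 38.7 and 43.7 CPM in WT 1 to 5. Every TfamAKO library lay above every WT library (log2 fold change 0.85 ± 0.06, edgeR adjusted p = 1.68e-06). Mars, methionyl-tRNA synthetase, was at 68.3, 76.1, 70.8, 70.1 and 68.1 CPM in TfamAKO 1 to 5, against 48.99, 50.3, 44.3, 47.5 and 48.4 CPM in WT 1 to 5. Its groups did not overlap either (log2 fold change 0.56 ± 0.06, edgeR adjusted p = 1.93e-05). Iars, isoleucyl-tRNA synthetase, was at 69.4, 72.6, 70.5, 70.96 and 82.2 CPM in TfamAKO 1 to 5, against 48.2, 47.8, 52.8, 51.99 and 53.8 CPM in WT 1 to 5. TfamAKO 5 was the highest, and the other TfamAKO libraries lay between 69.4 and 72.6 CPM (log2 fold change 0.52 ± 0.06, edgeR adjusted p = 8.36e-05).

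Among the rest of the complex the differences were smaller or did not pass. Qars, glutaminyl-tRNA synthetase, was at 49.9 to 59.2 CPM in TfamAKO and 44.6 to 49.2 CPM in WT, so its groups were separate by a narrow margin (log2 fold change 0.24 ± 0.06, edgeR adjusted p = 0.0121). Dars, aspartyl-tRNA synthetase, was at 55.4 to 73.6 CPM in TfamAKO and 53.5 to 62.5 CPM in WT, with TfamAKO 5 inside the WT range (log2 fold change 0.26 ± 0.08, edgeR adjusted p = 0.0237). Dars lost its call without WT 5 (edgeR adjusted p = 0.0710), TfamAKO 2 (0.0587) or TfamAKO 3 (0.0569). Rars, arginyl-tRNA synthetase, did not pass (log2 fold change 0.14 ± 0.06, edgeR adjusted p = 0.107), although it did without TfamAKO 5 (edgeR adjusted p = 0.0450). Kars, the lysyl-tRNA synthetase of both compartments, averaged 69.6 ± 4.56 CPM in TfamAKO and 69.6 ± 2.15 CPM in WT and its fold change was close to 0 (-0.00 ± 0.06 on the log2 scale). In all, 6 of the 8 complex members were higher, 5 of them with no overlap between the groups. Of all tested genes 20.8% were higher, and the share whose TfamAKO values all lay above the WT values was 14.5%.

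Of the 12 cytosolic or shared enzymes outside the complex, 9 were higher and 0 lower, beside 20.8% higher and 16.6% lower over all tested genes. Wars, tryptophanyl-tRNA synthetase, known as an interferon-gamma-induced gene, was at 162, 188, 178, 179.7 and 159 CPM in TfamAKO 1 to 5, against 102, 99.9, 89.8, 101 and 96.8 CPM in WT 1 to 5. Its rise was of the size seen for Lars (log2 fold change 0.83 ± 0.06, edgeR adjusted p = 2.90e-06). Vars, valyl-tRNA synthetase, was at 71.6, 86.97, 91.5, 90.96 and 83.1 CPM in TfamAKO 1 to 5, against 61.4, 61.2, 57.2, 55.4 and 55.3 CPM in WT 1 to 5. TfamAKO 1 was the lowest of its group and still above every WT library (log2 fold change 0.55 ± 0.07, edgeR adjusted p = 0.000154).

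Sars, Aars and Gars, all above 100 CPM in every library, rose by 0.39 on the log2 scale each. Sars, seryl-tRNA synthetase, was at 184, 227, 229.8, 219 and 212 CPM in TfamAKO 1 to 5, against 161, 181, 153, 159.9 and 162 CPM in WT 1 to 5 (log2 fold change 0.39 ± 0.07, edgeR adjusted p = 0.00114). Aars, alanyl-tRNA synthetase, was at 213, 243, 246, 242 and 228 CPM in TfamAKO 1 to 5, against 174, 188, 171, 181 and 179 CPM in WT 1 to 5 (log2 fold change 0.39 ± 0.05, edgeR adjusted p = 0.000234). Gars, the glycyl-tRNA synthetase of both compartments, in which variants cause a peripheral neuropathy in humans and mice, was at 147, 163, 153, 152 and 138 CPM in TfamAKO 1 to 5, against 113, 118, 110.3, 119 and 115 CPM in WT 1 to 5 (log2 fold change 0.39 ± 0.05, edgeR adjusted p = 0.000237). For all 3 genes the lowest TfamAKO library was above the highest WT library. The longest coding transcript of Aars shares 1326 bases with the neighbouring gene Exosc6, which has no row in the table. Reads from that stretch could be counted for Aars if the match is on the same strand, which was not recorded. Iars shares 1656 bases at 96.0% identity with the pseudogene Gm4849, and its level carries the same uncertainty.

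The remaining 4 that rose outside the complex did so by 0.24 to 0.30 on the log2 scale. Cars (cysteine, 0.30 ± 0.07), Yars (tyrosine, 0.26 ± 0.07), Tars (threonine, 0.25 ± 0.07) and Nars (asparagine, 0.24 ± 0.07) had edgeR adjusted p-values of 0.00908, 0.00900, 0.0141 and 0.0122. Cars was at 37.5 to 43.1 CPM in TfamAKO and 30.7 to 37.9 CPM in WT, Yars at 105 to 126 CPM in TfamAKO and 86.4 to 106 CPM in WT and Nars at 217 to 247 CPM in TfamAKO and 182 to 222 CPM in WT. For these 3 genes WT 2 was the highest WT library and the single one inside the TfamAKO range. Tars was at 35.6 to 39.1 CPM in TfamAKO and 27.6 to 33.9 CPM in WT, with separate groups, but did not pass without TfamAKO 4 and 5 (edgeR adjusted p = 0.0619). Hars, histidyl-tRNA synthetase, averaged 84.8 ± 3.89 CPM in TfamAKO and 86.2 ± 4.70 CPM in WT and did not pass (log2 fold change -0.02 ± 0.06, edgeR adjusted p = 0.760). Farsa and Farsb, the catalytic and the partner subunit of phenylalanyl-tRNA synthetase, did not pass either (0.02 ± 0.07 and -0.10 ± 0.09 on the log2 scale). Farsb ranged from 32.6 to 48.1 CPM in TfamAKO and 42.1 to 46.00 CPM in WT, so both its highest and its lowest library were TfamAKO. Farsb shares 250 bases with its neighbour Sgpp2, which was lower (log2 fold change -0.65 ± 0.21, edgeR adjusted p = 0.0294). Cars shares 214 bases with the pseudogene Gm15580. As the strand of these matches was not recorded, whether they affect the levels of Farsb and Cars is uncertain.

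The cytosolic calls that held without WT 3, 4 and 5, the libraries with choroid plexus transcripts, were the 8 of Aars, Eprs, Gars, Iars, Lars, Mars, Vars and Wars. With the choroid plexus score (the mean log2 CPM of its markers) as a covariate 9 remained, these 8 and Sars. Without WT 3, 4 and 5, where 2 WT libraries are left, 2752 of all tested genes passed, against 6048 with every library. Cars, Dars, Nars, Qars, Sars, Tars and Yars no longer passed there, with edgeR adjusted p-values of 0.0544 (Sars) to 0.198 (Nars) and log2 fold changes of 0.19 to 0.35.

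**Figure D2:**
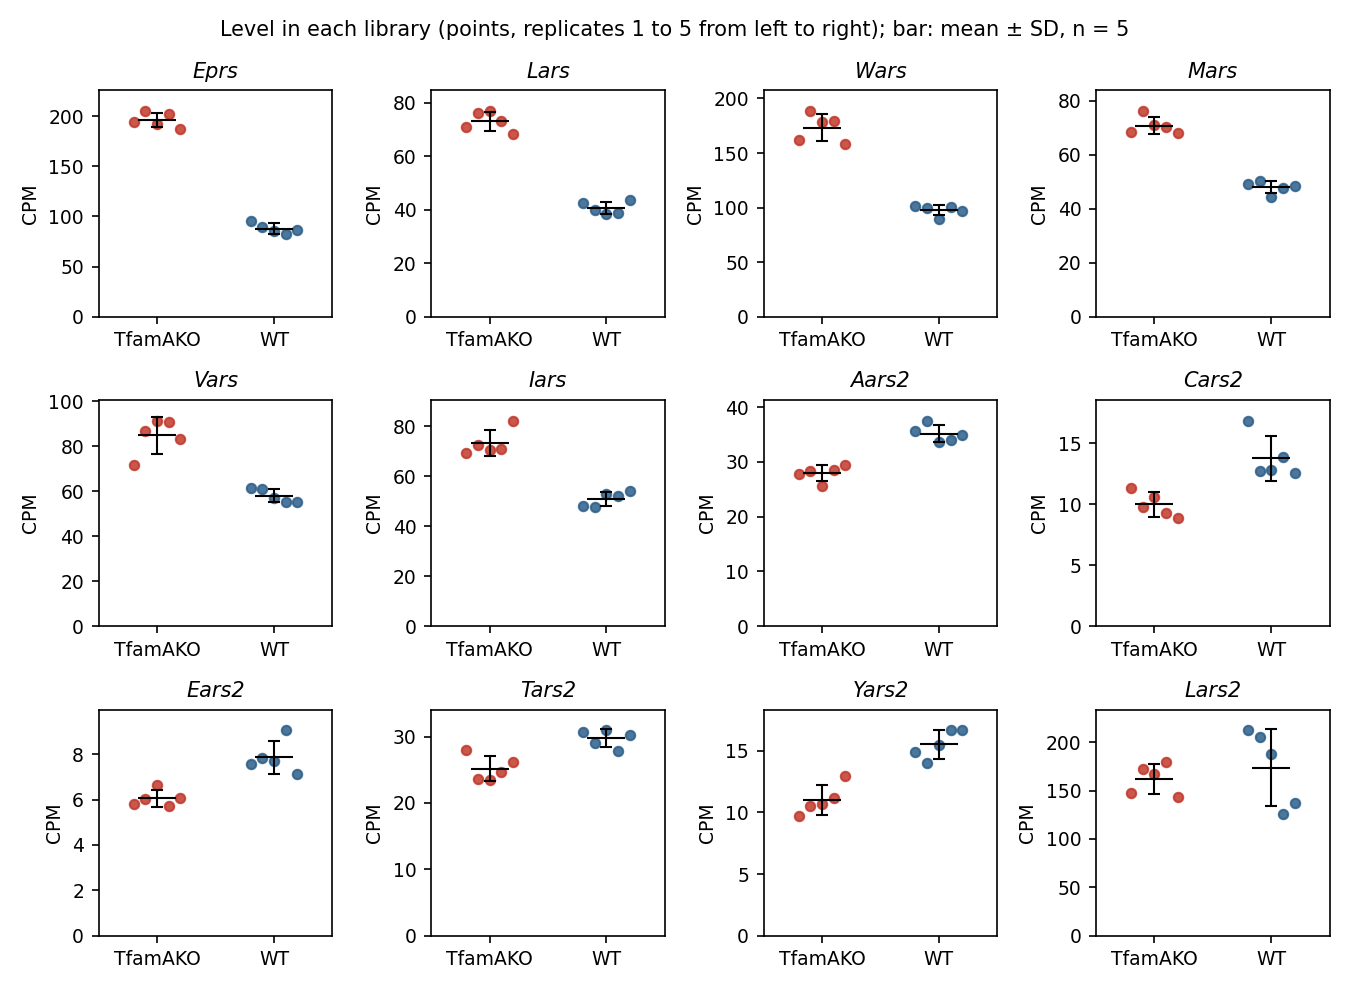
CPM of 12 synthetase mRNAs in each library, TfamAKO left and WT right in each panel, on axes that start at 0, with the group mean ± SD (n = 5). The 6 cytosolic genes (Eprs, Lars, Wars, Mars, Vars, Iars) and the mitochondrial genes Aars2, Cars2, Ears2 and Yars2 show no overlap between the groups, in opposite directions, while Lars2 is split within WT.

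By fold class, which sorts synthetases into the 2 unrelated catalytic folds, 8 of 9 cytosolic class I genes and 6 of 10 cytosolic or shared class II genes were higher (Eprs carries both folds and is left out). The share of all tested genes that were higher was 20.8%. The median log2 fold change was 0.52 for class I and 0.24 for class II. Rises of more than 0.5 on the log2 scale were found for 5 class I genes (Lars, Wars, Mars, Vars and Iars) and 0 class II genes, against 13.1% of all tested genes with a call and a rise of that size. Whether the classes differ was not tested.

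Promoter windows from RefSeq (GRCm38.p6), running from 250 bases before to 50 bases after the annotated start, were matched to 13 of the 20 cytosolic or shared genes and 14 of the 16 mitochondrial genes. Cars, Hars, Lars, Nars, Rars, Vars, Wars, Hars2 and Pars2 had no window. They were searched on both strands for TGATGCAA (reverse complement TTGCATCA), the core of the composite element bound by ATF4 with C/EBP factors, and for the looser TGATGNAA, which includes every match of the first. TGATGCAA was found for 4 of the 13 cytosolic or shared genes with a window, Aars, Iars, Tars and Yars, and for 0 of the 14 mitochondrial genes. Gars held only the looser form. Of all 27025 genes with a window, 1.03% held TGATGCAA and 4.51% held TGATGNAA. The 5 windows with a match are shown here from -120 to +30 relative to the start, with every TGATGNAA match on either strand in capitals. The windows of Eprs, the gene with the largest rise, and of Yars2, the gene with the largest fall, are shown after them and hold neither.
Aars: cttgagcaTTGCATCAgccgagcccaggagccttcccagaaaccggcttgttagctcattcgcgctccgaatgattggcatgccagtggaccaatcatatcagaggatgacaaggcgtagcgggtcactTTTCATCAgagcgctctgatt
Iars: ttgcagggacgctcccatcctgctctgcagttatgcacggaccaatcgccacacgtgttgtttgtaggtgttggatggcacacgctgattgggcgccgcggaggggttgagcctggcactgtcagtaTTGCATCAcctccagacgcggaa
Tars: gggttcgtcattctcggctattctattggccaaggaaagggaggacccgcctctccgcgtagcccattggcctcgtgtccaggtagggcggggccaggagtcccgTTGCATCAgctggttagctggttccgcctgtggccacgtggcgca
Yars: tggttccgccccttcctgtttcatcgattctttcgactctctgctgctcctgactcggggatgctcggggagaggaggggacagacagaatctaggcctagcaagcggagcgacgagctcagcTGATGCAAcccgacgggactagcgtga
Gars: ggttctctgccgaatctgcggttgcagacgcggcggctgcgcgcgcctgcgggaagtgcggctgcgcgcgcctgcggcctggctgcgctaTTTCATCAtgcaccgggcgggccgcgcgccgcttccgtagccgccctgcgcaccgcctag
Eprs: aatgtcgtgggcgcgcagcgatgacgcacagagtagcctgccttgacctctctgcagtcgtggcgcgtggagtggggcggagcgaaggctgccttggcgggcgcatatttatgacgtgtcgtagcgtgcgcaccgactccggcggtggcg
Yars2: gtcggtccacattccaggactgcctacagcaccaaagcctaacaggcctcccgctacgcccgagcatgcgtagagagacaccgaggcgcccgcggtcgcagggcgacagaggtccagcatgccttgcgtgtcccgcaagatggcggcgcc

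The stretches shown lie at chr8:111033722-111033871 (plus strand) for Aars, chr13:49682010-49682159 (plus strand) for Iars, chr15:11399629-11399778 (minus strand) for Tars, chr4:129189783-129189932 (plus strand) for Yars, chr6:55037881-55038030 (plus strand) for Gars, chr1:185362924-185363073 (plus strand) for Eprs and chr16:16302845-16302994 (plus strand) for Yars2. The TGATGCAA match lay at -112 to -105 in Aars, at -15 to -8 in Tars, at +4 to +11 in Yars and at +8 to +15 in Iars. Aars held a second, looser match at +10 to +17, and the match in Gars lay at -30 to -23. All 4 genes with TGATGCAA were higher in TfamAKO, with log2 fold changes from 0.25 (Tars) to 0.52 (Iars). Of the 9 cytosolic or shared windows without it, 6 belonged to genes that were higher (Dars, Eprs, Gars, Mars, Qars and Sars) and 3 to genes that did not pass (Farsa, Farsb and Kars). Genes that rose were thus found both with and without these letters in their windows. Letters outside the windows were not searched. For 23 of the 27 genes with a window, bases 21 to 40 after the annotated start were found in a GENCODE M21 transcript of that gene.

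Of the 16 mitochondrial enzymes, 5 were lower in TfamAKO, beside 16.6% of all tested genes. Yars2, mitochondrial tyrosyl-tRNA synthetase, was at 9.69, 10.6, 10.7, 11.2 and 12.9 CPM in TfamAKO 1 to 5, against 14.9, 13.96, 15.5, 16.7 and 16.7 CPM in WT 1 to 5. All TfamAKO libraries lay below all WT libraries (log2 fold change -0.50 ± 0.10, edgeR adjusted p = 0.00225). Cars2, the cysteine enzyme, was at 11.3, 9.79, 10.6, 9.26 and 8.88 CPM in TfamAKO 1 to 5, against 16.8, 12.7, 12.8, 13.8 and 12.5 CPM in WT 1 to 5. WT 1 was the highest, and the groups stayed apart (log2 fold change -0.46 ± 0.11, edgeR adjusted p = 0.00713). Aars2, the alanine enzyme, in which variants cause a leukoencephalopathy in humans, was at 27.8, 28.3, 25.6, 28.6 and 29.4 CPM in TfamAKO 1 to 5, against 35.6, 37.5, 33.7, 34.01 and 34.96 CPM in WT 1 to 5. Its decrease had the smallest p of the mitochondrial genes (log2 fold change -0.33 ± 0.06, edgeR adjusted p = 0.00149).

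Ears2, mitochondrial glutamyl-tRNA synthetase, another gene of human leukoencephalopathy, averaged 6.05 ± 0.360 CPM in TfamAKO and 7.86 ± 0.723 CPM in WT (log2 fold change -0.38 ± 0.11, edgeR adjusted p = 0.0159). Tars2, the threonine enzyme, averaged 25.2 ± 1.91 CPM in TfamAKO and 29.8 ± 1.31 CPM in WT (log2 fold change -0.24 ± 0.07, edgeR adjusted p = 0.0177), and TfamAKO 1 lay inside its WT range. Ears2 did not pass without TfamAKO 4 and 5 (edgeR adjusted p = 0.0605). Tars2 lost its call without TfamAKO 2 (edgeR adjusted p = 0.05004) or TfamAKO 3 (0.0504). For Aars2, Cars2, Ears2 and Yars2 the groups did not overlap, as was the case for 9.43% of all tested genes in this direction. Without WT 3, 4 and 5, 3 mitochondrial genes were lower (Aars2, Cars2 and Lars2), and Yars2 (log2 fold change -0.36, edgeR adjusted p = 0.127), Ears2 (-0.32, 0.174) and Tars2 (-0.22, 0.196) did not pass. With the choroid plexus score as a covariate the count was also 3 (Aars2, Cars2 and Yars2). Of all tested genes 750 were lower without WT 3, 4 and 5 and 1764 with the covariate, against 2679 with neither change. In the authors' normalized values Cars2 and Ears2 did not pass (limma adjusted p = 0.0566 and 0.0572 at a pseudocount of 1). Cars2 shares 217 bases with Naxd, which did not pass (log2 fold change -0.11 ± 0.08).

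Fars2, the phenylalanine enzyme, was the mitochondrial gene with a rise, at 15.8, 20.6, 18.5, 19.6 and 15.4 CPM in TfamAKO 1 to 5, against 14.02, 14.6, 15.2, 16.2 and 14.6 CPM in WT 1 to 5. Only TfamAKO 2, 3 and 4 lay above the WT range, and the call was marginal (log2 fold change 0.27 ± 0.10, edgeR adjusted p = 0.0478). It did not pass under 19 of 23 alternatives, among them leaving out any 1 WT library and leaving out TfamAKO 2, 3 or 4 (edgeR adjusted p from 0.0518 to 0.124).

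The other 10 mitochondrial genes did not pass, with log2 fold changes from -0.20 (Hars2) to 0.21 (Nars2). Per kilobase of its longest coding transcript in GENCODE M21, Lars2, the leucine enzyme, had the highest WT level of the mitochondrial group, at 44.6 CPM per kb, against a group median of 6.29. The cytosolic or shared genes had a median of 20.6 CPM per kb in WT, between 7.87 for Tars and 71.4 for Nars. Lars2 was at 147, 173, 167, 179 and 144 CPM in TfamAKO 1 to 5, against 213, 205, 188, 125 and 137 CPM in WT 1 to 5. WT 4 and 5 lay below all 5 TfamAKO libraries and WT 1, 2 and 3 above them (log2 fold change -0.10 ± 0.14, edgeR adjusted p = 0.601). Without WT 3, 4 and 5 Lars2 passed as lower (log2 fold change -0.34, edgeR adjusted p = 0.0413). Mars2, the methionine enzyme, was at 19.2 to 23.5 CPM in TfamAKO and 15.7 to 23.9 CPM in WT and did not pass (log2 fold change 0.19 ± 0.11, edgeR adjusted p = 0.220), although it did without WT 2 (log2 fold change 0.30, edgeR adjusted p = 0.0353). Iars2 (0.04 ± 0.07), Sars2 (0.07 ± 0.12), Pars2 (0.10 ± 0.11), Vars2 (0.12 ± 0.06), Rars2 (0.13 ± 0.10) and Wars2 (-0.18 ± 0.11) each overlapped between the groups. Of these, Iars2 had the highest mean, with 57.5 ± 4.38 CPM in TfamAKO and 55.8 ± 3.65 CPM in WT, and Wars2 the lowest, with 5.37 ± 0.374 CPM in TfamAKO and 6.09 ± 0.531 CPM in WT. Hars2 averaged 18.6 ± 2.09 CPM in TfamAKO and 21.4 ± 1.89 CPM in WT. The longest coding transcript of Iars2 shares 2034 bases with Rab3gap2, and that of Hars2 shares 195 bases with Hars. The strand of these matches was not recorded, so whether they affect these levels is uncertain.

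The authors' normalized values scale genes differently within a library, and for a few synthetases they gave another size of change. Nars2, mitochondrial asparaginyl-tRNA synthetase, was at 12.6, 12.03, 15.2, 14.5 and 12.7 CPM in TfamAKO 1 to 5, against 12.5, 9.52, 12.6, 11.7 and 11.6 CPM in WT 1 to 5 in the counts and did not pass (log2 fold change 0.21 ± 0.11, edgeR adjusted p = 0.137). Its longest coding transcript shares 284 bases with the antisense gene C230038L03Rik. In the normalized values it was at 331, 262, 369.7, 399.5 and 365 normalized units in TfamAKO 1 to 5, against 218, 190.3, 213, 264 and 262 normalized units in WT 1 to 5, where only TfamAKO 2 overlapped WT and it passed (log2 fold change 0.58 ± 0.14, limma adjusted p = 0.00718). Mars rose in both, by 0.56 ± 0.06 in the counts and by less in the authors' table (log2 fold change 0.29 ± 0.09, limma adjusted p = 0.0282). Tars did not pass there (log2 fold change 0.07 ± 0.08, limma adjusted p = 0.517), nor did Cars (limma adjusted p = 0.101) or Qars (0.220). Fars2 did not pass there either (log2 fold change 0.13 ± 0.14, limma adjusted p = 0.505, against 0.27 ± 0.10 in the counts). Eprs was nearly the same in both (log2 fold change 1.14 and 1.16). No source used here says what that scaling corrects for.

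For each amino acid, the ratio of cytosolic to mitochondrial mRNA was taken within each library, which removes library scaling. It was computed for 17 pairs, 13 of them one to one, 2 with Fars2 and 2 with Eprs. In 12 pairs the ratio was higher in TfamAKO, in 2 lower, and in 3 it did not pass (two-sided exact permutation test over 252 assignments of libraries, Benjamini-Hochberg adjusted over the 17 pairs). In 9 pairs the groups did not overlap and the exact permutation p was 0.00794, the smallest this test can give, with an adjusted p of 0.0150. No ratios of other gene pairs were computed for comparison. Of all tested genes taken singly, 37.4% passed in edgeR and 23.9% did not overlap between the groups. The ratios are built from the same mRNA levels as the calls above, so their counts are no separate evidence.

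The largest difference was in the pair Eprs and Ears2, with a log2 ratio of 5.001 ± 0.11 in TfamAKO and 3.47 ± 0.19 in WT (SD, n = 5 each, difference 1.53). Eprs over Pars2 had a log2 ratio of 4.57 ± 0.08 in TfamAKO and 3.51 ± 0.11 in WT (SD, n = 5 each, difference 1.06). For Wars over Wars2 it was 4.99 ± 0.16 in TfamAKO and 3.99 ± 0.18 in WT (SD, n = 5 each, difference 0.999). In each of these pairs the cytosolic mRNA changed by more than its partner (Eprs 1.16, Ears2 -0.38, Pars2 0.10, Wars 0.83 and Wars2 -0.18 on the log2 scale). For Yars over Yars2 the log2 ratio was 3.36 ± 0.18 in TfamAKO and 2.60 ± 0.19 in WT (SD, n = 5 each, difference 0.76). For Cars over Cars2 it was 2.01 ± 0.18 in TfamAKO and 1.256 ± 0.25 in WT (SD, n = 5 each, difference 0.75), and for Aars over Aars2 3.06 ± 0.13 in TfamAKO and 2.34 ± 0.05 in WT (SD, n = 5 each, difference 0.72). In these 3 pairs both mRNAs passed, in opposite directions, as they did for Eprs with Ears2 and for Tars with Tars2. Lars over Lars2 differed by 0.92, Tars over Tars2 by 0.49 and Iars over Iars2 by 0.48, again with no overlap. Without TfamAKO 4 and 5, 8 pairs passed, and the higher ratios that lost their call were Lars over Lars2 (difference 0.95, exact permutation adjusted p = 0.0552), Mars over Mars2 (0.41, 0.0552), Vars over Vars2 (0.39, 0.0552) and Sars over Sars2 (0.35, 0.0759). Without WT 3, 4 and 5, 0 pairs passed, where the exact permutation p cannot go below 0.0476 before adjustment.

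Vars over Vars2 (0.42), Mars over Mars2 (0.36) and Sars over Sars2 (0.31) were higher by less and overlapped between the groups (exact permutation adjusted p = 0.0245, 0.0245 and 0.0337). Leaving out TfamAKO 2, 3 or 4 or WT 1, 2, 4 or 5 raised the adjusted p of the Sars pair above the threshold (0.0578 to 0.0623), and leaving out TfamAKO 3 did so for the Mars pair (0.0562). In the authors' normalized values the Mars pair differed by 0.08 and did not pass (exact permutation adjusted p = 0.363). Farsa over Fars2 (-0.24) and Farsb over Fars2 (-0.37) were lower (exact permutation adjusted p = 0.0385 each), but 1 or both of these lost the call without any of 8 single libraries (TfamAKO 1 to 4 or WT 1, 2, 3 or 5), with adjusted p-values of 0.0562 to 0.0771. For Hars, Nars and Rars the ratios to their mitochondrial partners overlapped and did not pass, with differences of 0.18, 0.03 and -0.00, and Hars over Hars2 passed without WT 5 (exact permutation adjusted p = 0.0415).

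**Figure D3:**
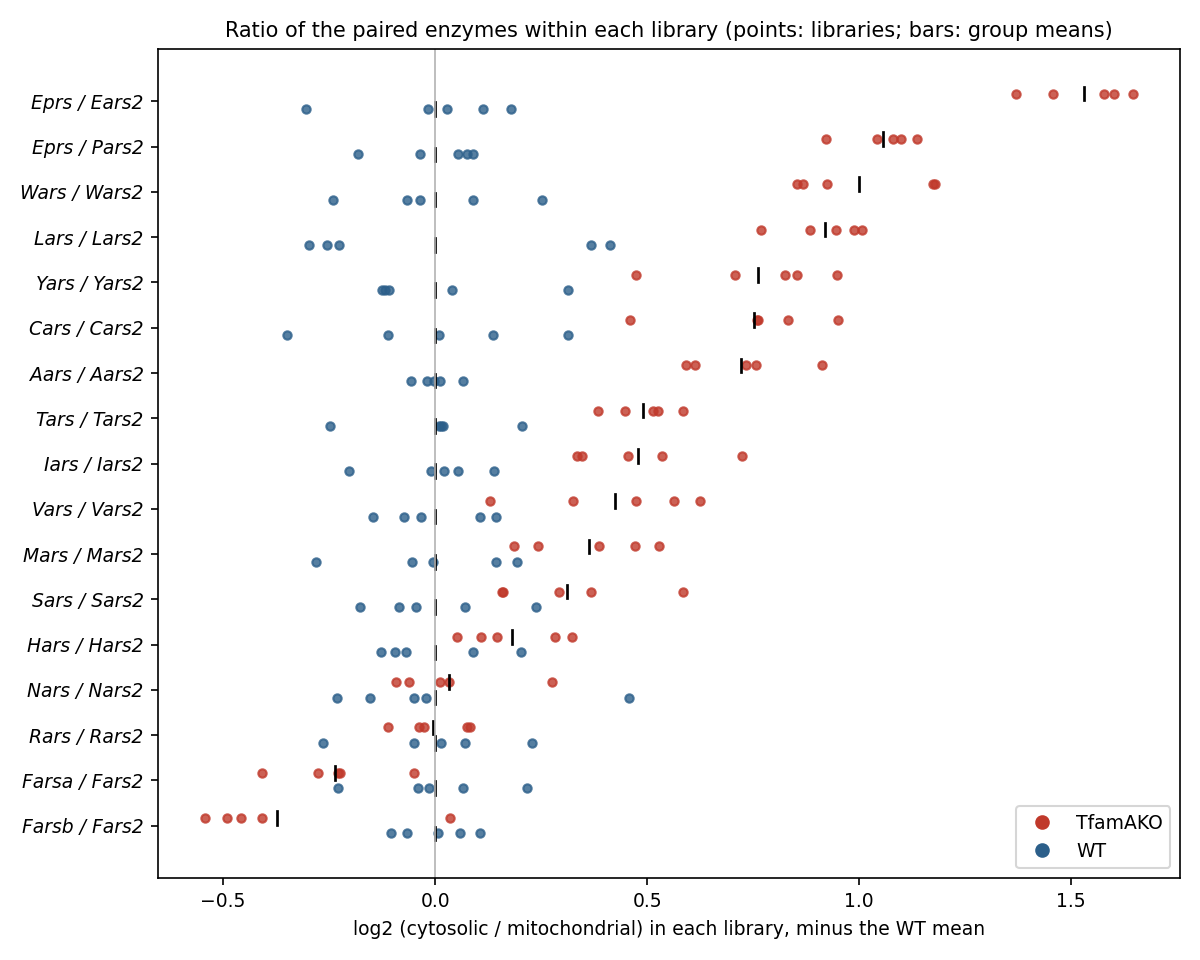
Log2 ratio of the cytosolic to the mitochondrial mRNA of each of 17 enzyme pairs in every library, minus the WT mean of that pair, with TfamAKO points above WT points and bars at the group means. In the 9 pairs from Eprs / Ears2 down to Iars / Iars2 all TfamAKO points lie to the right of all WT points, and only the 2 pairs with Fars2 have group means clearly left of 0.

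Summed over the 20 cytosolic or shared genes, synthetase mRNA made up 1982, 2184, 2163, 2132 and 1994 CPM in TfamAKO 1 to 5, against 1584, 1642, 1499.5, 1578 and 1561 CPM in WT 1 to 5. The lowest TfamAKO sum lay above the highest WT sum. Over the 16 mitochondrial genes the sum was 421, 449.6, 444, 453 and 424 CPM in TfamAKO 1 to 5 and 502, 499, 473, 413 and 423 CPM in WT 1 to 5, so the groups overlapped. Lars2 alone gave 125 to 213 CPM of the mitochondrial sum in WT. Within TfamAKO the 15 cytosolic genes that rose were lowest in TfamAKO 1 for 7 genes and in TfamAKO 5 for 7 genes, and highest in TfamAKO 2 for 6 and in TfamAKO 3 for 6. Averaged over these 15 genes, the log2 level above the WT mean was 0.40, 0.54, 0.53, 0.50 and 0.42 in TfamAKO 1 to 5. The 15 genes were chosen by their rise in these same libraries, so a positive average follows from the choice.

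Marker genes of several brain cell types differed with the genotype, beside 20.8% higher and 16.6% lower over all tested genes. Of 8 neuron markers 4 were lower, and their summed level was 5031 to 6224 CPM in TfamAKO and 6587 to 7172 CPM in WT. Of 8 microglia markers 7 were higher, with sums of 578 to 711 CPM in TfamAKO and 324 to 380 CPM in WT. Of 8 astrocyte markers 4 were higher and 2 lower, and their sums overlapped at 4430 to 7002 CPM in TfamAKO and 4110 to 5046 CPM in WT. Of 8 oligodendrocyte markers 2 were higher, a share near that of all genes, with overlapping sums of 5667 to 7734 CPM in TfamAKO and 5199 to 9023 CPM in WT. Of 8 endothelium and pericyte markers 5 were higher, and their sums, 412.1 to 599 CPM in TfamAKO and 308 to 412.3 CPM in WT, overlapped between TfamAKO 5 and WT 2. No marker was at 0 in every library. In whole tissue, fewer cells of a type and less RNA per cell cannot be told apart, and the part of cell composition in the synthetase changes was not tested.

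Further genes of tRNA charging and translation were grouped into 7 lists, whose counts stand beside 20.8% higher and 16.6% lower over all tested genes. In the multisynthetase scaffold and tRNA export list, 1 of 4 tested genes was higher and 1 lower, with a median log2 fold change of -0.01. Xpot, the exporter of tRNA from the nucleus, averaged 125 ± 7.73 CPM in TfamAKO and 102 ± 2.002 CPM in WT (log2 fold change 0.29 ± 0.05, edgeR adjusted p = 0.00148). Aimp2, a scaffold protein of the complex, averaged 11.6 ± 1.1 CPM in TfamAKO and 14.4 ± 1.14 CPM in WT (log2 fold change -0.31 ± 0.10, edgeR adjusted p = 0.0235), and Eef1e1, another scaffold protein, did not pass (log2 fold change -0.11 ± 0.10, edgeR adjusted p = 0.420). Aimp1, the remaining scaffold gene, did not pass (log2 fold change 0.09 ± 0.09). The count of calls in this list was 1 without TfamAKO 2, 3 or 4 or WT 1.

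Of 4 tested genes of mitochondrial glutaminyl-tRNA amidation and methionyl-tRNA formylation, 0 passed in edgeR and 1 in DESeq2 and in limma-voom, with a median of -0.07. At an unadjusted p under 0.05 the count was 1, Qrsl1, a subunit of the amidotransferase (log2 fold change -0.30 ± 0.12, edgeR adjusted p = 0.0698). Its other subunit genes Gatc (log2 fold change -0.11 ± 0.07, edgeR adjusted p = 0.264) and Gatb (log2 fold change 0.05 ± 0.08, edgeR adjusted p = 0.649) did not pass. Of 13 mitochondrial translation factors 0 passed in edgeR, 2 in DESeq2 and 1 in limma-voom, with 5 at an unadjusted p under 0.05 and a median of -0.05. Those with the smallest p were Mrrf, the ribosome recycling factor of mitochondria (log2 fold change -0.30 ± 0.11, edgeR adjusted p = 0.0560), Mtg2 (log2 fold change -0.34 ± 0.14, edgeR adjusted p = 0.0767) and Guf1 (log2 fold change 0.31 ± 0.13, edgeR adjusted p = 0.0859). Of 16 genes of mitochondrial tRNA processing and modification, 1 was higher and 2 lower, fewer calls than the 37.4% of all tested genes, with a median of 0.01. Mto1, which modifies the wobble uridine of mitochondrial tRNAs, averaged 13.5 ± 1.69 CPM in TfamAKO and 20.9 ± 1.46 CPM in WT (log2 fold change -0.63 ± 0.10, edgeR adjusted p = 0.000438). Nsun3, which methylates mitochondrial tRNA for methionine, moved the other way, with 14.1 ± 0.712 CPM in TfamAKO and 9.47 ± 0.932 CPM in WT (log2 fold change 0.58 ± 0.09, edgeR adjusted p = 0.000615). The methyltransferase gene Trmt61b was lower (log2 fold change -0.55 ± 0.16, edgeR adjusted p = 0.0204).

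Among 6 genes of tRNA editing and proofreading 1 was higher and 1 lower. Their median log2 fold change was 0.13. Prorsd1 was the higher one (log2 fold change 0.73 ± 0.20, edgeR adjusted p = 0.0128). Dtd1, which encodes a D-aminoacyl-tRNA deacylase, was the lower one (log2 fold change -0.22 ± 0.07, edgeR adjusted p = 0.0339). Dtd2, which encodes a related deacylase, did not pass (log2 fold change 0.31 ± 0.12, edgeR adjusted p = 0.0632). Of 7 cytosolic elongation factor genes 3 were higher and 1 lower, with a median of 0.13. Eef2k, the kinase that slows elongation by phosphorylating eEF2, averaged 54.7 ± 6.32 CPM in TfamAKO and 39.6 ± 1.62 CPM in WT (log2 fold change 0.47 ± 0.08, edgeR adjusted p = 0.000771). Eef1a1, the widely expressed carrier of charged tRNA to the ribosome, was higher (log2 fold change 0.35 ± 0.08, edgeR adjusted p = 0.00478). Eef1a2, its isoform of neurons and muscle, was lower (log2 fold change -0.50 ± 0.09, edgeR adjusted p = 0.00133). Of 8 neuron markers 4 were lower, and the part of cell composition in the Eef1a2 change was not tested.

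Within the 7 lists, the genes with larger rises than Eprs all stood in the list for uncharged tRNA and amino acid stress. In this list 9 of 11 tested genes were higher and 1 was lower, with a median log2 fold change of 0.82. The higher ones included ATF4 targets such as Trib3, Sesn2, Ddit3 and Asns. Of the genes that sense uncharged tRNA, Eif2ak4, which encodes the kinase GCN2, did not pass (log2 fold change 0.10 ± 0.07, edgeR adjusted p = 0.274), and Gcn1, which encodes its activator, was higher (log2 fold change 0.20 ± 0.06, edgeR adjusted p = 0.0234). The lower one was Impact, an inhibitor of the uncharged-tRNA sensor kinase GCN2 (log2 fold change -0.27 ± 0.09, edgeR adjusted p = 0.0374). By p, Gcn1 and Impact ranked 9 and 10 in this list, and the groups overlapped for each. Whether GCN2 activity changed was not tested. Trib3, a pseudokinase induced by ATF4, averaged 23.2 ± 3.11 CPM in TfamAKO and 0.448 ± 0.228 CPM in WT (log2 fold change 5.64 ± 0.24, edgeR adjusted p = 3.20e-08). Sesn2, a leucine-binding inhibitor of mTORC1 signalling, was higher as well (log2 fold change 2.02 ± 0.11, edgeR adjusted p = 2.33e-07). Ddit3, which encodes the stress transcription factor CHOP, had a rise of like size (log2 fold change 2.05 ± 0.15, edgeR adjusted p = 2.65e-06). This list overlaps genes already known from earlier results of these data to rise, so its count is no independent evidence.

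**Figure D4:**
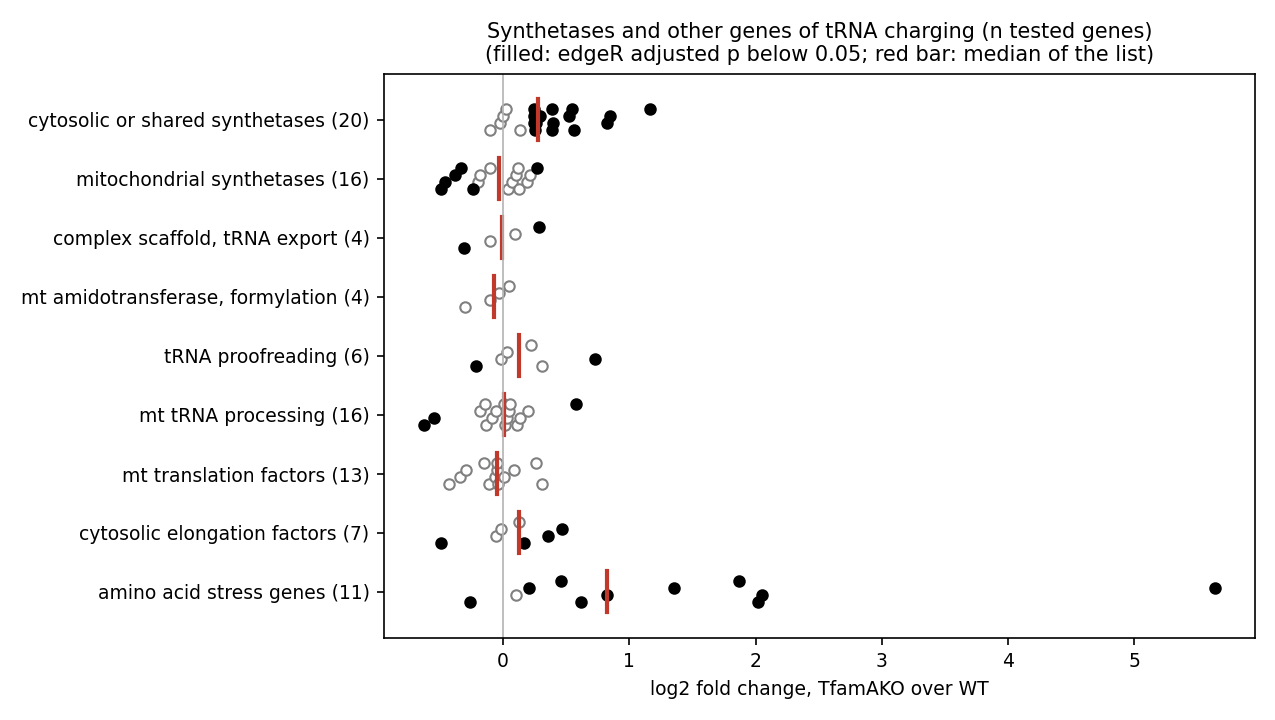
Log2 fold change, TfamAKO over WT, of every tested gene of the 2 synthetase groups and of 7 further lists, 1 point per gene, filled where the adjusted p threshold of 0.05 was passed, with a bar at the median of each list. The cytosolic or shared synthetases have their median at 0.28 and the list of amino acid stress genes at 0.82, while the mitochondrial lists lie about 0.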

How the data were processed

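Hippocampal RNA of 5 TfamAKO and 5 WT mice was analysed. Per the labels' protocols, the library kit was stranded and selected mRNA. Salmon (version not given) and DESeq2 1.26.0 are named in the submitters' processing notes. No source used here names the genome build or annotation. The authors deposited estimated counts per gene, all whole numbers, so rounding changed no value, and a table of normalized signal whose making is not described.

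The count test was run in edgeR 4.0.16 (R 4.3.3). Filtering by filterByExpr (minimum count 10) kept 16180 genes, libraries were scaled by TMM factors, and genotype was the only term of a two-sided quasi-likelihood test, with Benjamini-Hochberg adjustment over all genes tested. The SE is the absolute log2 fold change over the square root of F. Ratios used log2 CPM with a prior count of 2. Alternatives used DESeq2 1.42.0 and limma 3.58.1, where limma ran on counts (voom) and on log2 of the deposited normalized signal plus a pseudocount. Transcripts sharing at least 150 bases at 95% identity were found with blastn 2.17.0 in GENCODE M21. The search covered both strands and did not record which one matched. With a stranded kit, reads from a stretch on the opposite strand need not be mixed. The edgeR step was tested on simulated counts. Genes named are all 36 synthetases, the 3 genes of each further list with the lowest p, and Tfam. Prox1, Neurod6, Kdm5d, Naxd, Rab3gap2, Sgpp2, Aimp1, Asns, Eif2ak4, Gcn1 and Impact were chosen after values were seen. The members and lists were chosen with earlier results of these data known. P-values set the difference between the groups against the spread between these libraries, 1 per mouse. That spread includes their differences in sex and in choroid plexus transcripts. At these depths counting error is part of the fitted spread, and no separate interval is given.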

Additional observations from a re-analysis of the deposited data

Results flagged for a closer look

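In 3 of 106 groups of 5 values, 1 library lay far from the other 4 relative to the range of the group, where chance flags about 1 group in 20. Hars was at 78.0 CPM in TfamAKO 2, against 85.6 CPM in the nearest TfamAKO library. Iars was at 82.2 CPM in TfamAKO 5, against 72.6 CPM in the nearest, and it passed without that library too. The log2 ratio of Farsb to Fars2 was 1.60 in TfamAKO 1, against 1.16 in the nearest TfamAKO library.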

How the results depend on the processing

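Of the 21 synthetases that passed, 9 passed under all 23 alternatives (Aars, Eprs, Gars, Iars, Lars, Mars, Vars, Wars and Aars2), and 0 changed direction under any. Without WT 3, 4 and 5, where 2 WT libraries remain, 8 cytosolic genes were higher, 3 mitochondrial genes lower and 0 higher, and 2002 of all tested genes were higher and 750 lower, 2752 in total. With the choroid plexus score as a covariate the counts were 9 cytosolic higher, 3 mitochondrial lower and 0 higher, and 1764 of all genes lower. Without TfamAKO 4 and 5, without WT 3, 4 and 5, with DESeq2 or upper-quartile factors, no filter, voom or the covariate, Fars2 did not pass and 0 mitochondrial genes were higher. In the authors' normalized values (pseudocounts 0.5, 1 and 5) 3 mitochondrial genes were lower.

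Further lists moved by 1 to 3 genes. The elongation factor list had 2 calls without WT 3, 4 and 5. The scaffold list had 1 there and 1 with the covariate. The proofreading list had 0 without WT 3, 4 and 5, and 1 with the covariate or without TfamAKO 4 and 5. The amidotransferase list had 1 with the DESeq2 Wald test and with voom. The mitochondrial translation factor list had 2 with the Wald test and in the normalized values, and 1 with voom and with upper-quartile factors.

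Of the genes that did not pass, 8 changed sign under some alternative (log2 fold changes). Farsa was at -0.063 with the covariate, -0.035 without WT 3, 4 and 5, -0.028 in the normalized values and -0.0064 with upper-quartile factors. Farsb was at 0.013 without TfamAKO 4 and 5. Hars was at 0.0074 without WT 3, 4 and 5. Kars was at 0.022 with the covariate, 0.023 without TfamAKO 4 and 5, and 0.057 without WT 3, 4 and 5. Mars2 was at -0.0020 and Pars2 at -0.060 without WT 3, 4 and 5. Pars2 was at -0.070 with the covariate and -0.031 in the normalized values at pseudocounts of 0.5 and 1 and -0.030 at 5, where Vars2 was at -0.023. The difference in the Nars to Nars2 ratio was -0.12 without WT 3, 4 and 5 and -0.34 in the normalized values, and that of Rars to Rars2 was 0.0030 without TfamAKO 4 and 5. The cytosolic median was 0.33 without TfamAKO 4 and 5, and the median log2 fold change, mitochondrial synthetases only, was -0.056 with the covariate and -0.061 with upper-quartile factors. The cause of these moves was not tested.

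Leaving out 1 library at a time, the range was 0 to 1 for mitochondrial genes higher, 0.26 to 0.34 for the cytosolic median and -0.082 to 0.029 for the mitochondrial median. Pairs with a lower ratio ranged from 0 to 2. The lists ranged from 1 to 3 calls (proofreading), 0 to 1 (amidotransferase), 0 to 3 (translation factors) and 1 to 2 (scaffold). Log2 fold changes ranged from -0.0043 to 0.065 for Farsa, -0.037 to 0.0057 for Hars, -0.022 to 0.038 for Kars and -0.0069 to 0.15 for Sars2. The pair differences ranged from -0.027 to 0.15 for Nars and Nars2 and from -0.070 to 0.054 for Rars and Rars2.

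The labels do not say whether the replicate numbers pair the mice. Deviations of same-numbered libraries correlated between -0.14 and 0.07, and 0 libraries correlated best with their own number. Such correlations cannot exclude a pairing, because differences between single libraries could hide it. With the replicate block 15 cytosolic genes were higher, 5 mitochondrial genes lower and 0 higher, and the proofreading and translation factor lists had 1 call each. Pairs with a higher ratio and pairs with a lower ratio both fell to 0 under the block and without WT 3, 4 and 5, where the exact permutation test cannot go below p = 0.0625 and 0.0476 before adjustment, and pairs with a lower ratio were 0 without TfamAKO 4 and 5 and in the normalized values.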
